A study of Mus musculus with 18 samples.

Results

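Interleukin-1 and tumor necrosis factor form the inflammatory cytokine system described here across bone marrow and epididymal adipocytes of aging mice. It was taken as 10 genes: the ligands Il1a, Il1b, Il18 and Tnf, the antagonist Il1rn, the receptors Il1r1, Il1r2, Tnfrsf1a and Tnfrsf1b, and the inflammasome sensor Nlrp3. A gene was given by the probe set that names it alone, and by the one with the highest mean over all arrays had there been several. Of the 10 genes, 9 had such a probe set and each had only 1, out of 19938 genes with one in the whole array. Il1r1, the signaling receptor of IL-1, matched none and was not analysed here.

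The preparations came from male C57BL/6J mice on standard chow, killed at 6, 14 or 18 months of age. Bone marrow adipocytes of 6, 14 and 18 months were flushed from femurs and tibias and floated after lysis of red cells. Epididymal white adipocytes of the same 3 ages, which the deposited labels call peripheral, were floated after collagenase digestion and came from the same mice. Each of the 6 groups had 3 arrays, each of a pool of RNA. The 3 pools of a group came from 6 to 10 animals in all, and the cells were not sorted by surface markers. The deposited values are on a log2 scale, so a difference of 1 is a fold of 2, and every value below is a log2 value unless a fold is named.

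In this system the cytokine IL-1β is made as an inactive precursor, which caspase-1 cuts after an inflammasome such as that of NLRP3 has assembled. IL-1α and IL-1β act on the same receptor, the product of Il1rn blocks it, and the product of Il1r2 binds the ligand without signaling. TNF acts through a receptor found on most cells, encoded by Tnfrsf1a, and one found mainly on blood and endothelial cells, encoded by Tnfrsf1b. In fat tissue TNF is known to dampen insulin signaling and to promote breakdown of stored lipid, and macrophages and other blood cells are major sources of both cytokines.

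The preparations differed in their cell markers. All 9 measured adipocyte markers, such as Adipoq and Plin1, were lower in bone marrow preparations, by a median of 5.16, and their mean was 6.41 to 7.22 in the bone marrow arrays, against 12.08 to 12.54 in the epididymal arrays. All 12 neutrophil markers were higher in bone marrow preparations, by a median of 6.02. Their mean was 11.37 to 12.09 in the bone marrow arrays, against 4.98 to 8.48 in the epididymal arrays. Of 11 macrophage and monocyte markers 9 were higher over the ages, by a median of 1.56, and at 14 months 4 were higher and 1 lower. All 5 erythroid, all 4 megakaryocyte and platelet, 5 of 6 B lineage and 1 of 5 T and NK markers were higher. Of 6 fibroblast and stromal markers 5 were lower, and of 5 endothelial markers 3 were lower and 1 higher. Libraries that stood apart included replicate 1 of epididymal adipocytes at 6 months. Its mean over the neutrophil list was 8.48, against 5.22 and 5.10 in replicates 2 and 3. Over the erythroid list its mean was 6.67, against 5.51 and 5.63. Replicate 2 of bone marrow at 6 months had a mean over 12 immediate early genes of 10.98, against 9.58 and 9.62. Over the megakaryocyte and platelet list that array had 9.44, against 10.68 and 10.56. In pooled preparations of this kind, fewer cells of a type and less RNA per cell cannot be told apart. Array medians lay between 5.33 and 5.65.

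Between cell types, 7 of the 9 genes were higher in bone marrow than in epididymal adipocytes at each of the 3 ages and over the ages, by adjusted p and a fold of at least 2. The background was 21.8% of 23410 probe sets called over the ages, with 10.2% called higher in bone marrow. At 6, 14 and 18 months 23.1%, 21.4% and 23.8% were called, and 11.4%, 9.91% and 10.9% were called higher. Of the calls at each age 49.2%, 46.3% and 45.8% were higher, against 9.47%, 19% and 16.7% with arrays scaled to equal ribosomal protein genes. Of all calls over the ages 46.7% were higher in bone marrow, and 15.1% were when arrays were scaled to equal ribosomal protein genes, a scaling under which the same 7 genes were still called higher. The differences over the ages ran from 2.54 for Il1rn to 6.49 for Il1b, which is a 5.82-fold to 89.8-fold difference. Epididymal means over the ages lay below the median of all values (5.545) for Il1a (3.82), Nlrp3 (4.57), Il1b (5.00) and Il1r2 (5.44). The folds of these genes thus rest on dim epididymal values. Il18 and Tnfrsf1a did not reach a fold of 2 at any age. The 9 bone marrow arrays did not overlap with the 9 epididymal arrays for the 7 called genes, which was so for 27.6% of all probe sets. Within an age, 9 of the 9 genes had no overlap at 6 months, 7 at 14 months and 9 at 18 months, against 48.2%, 57% and 58.3% of all probe sets.

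**Figure D1:**
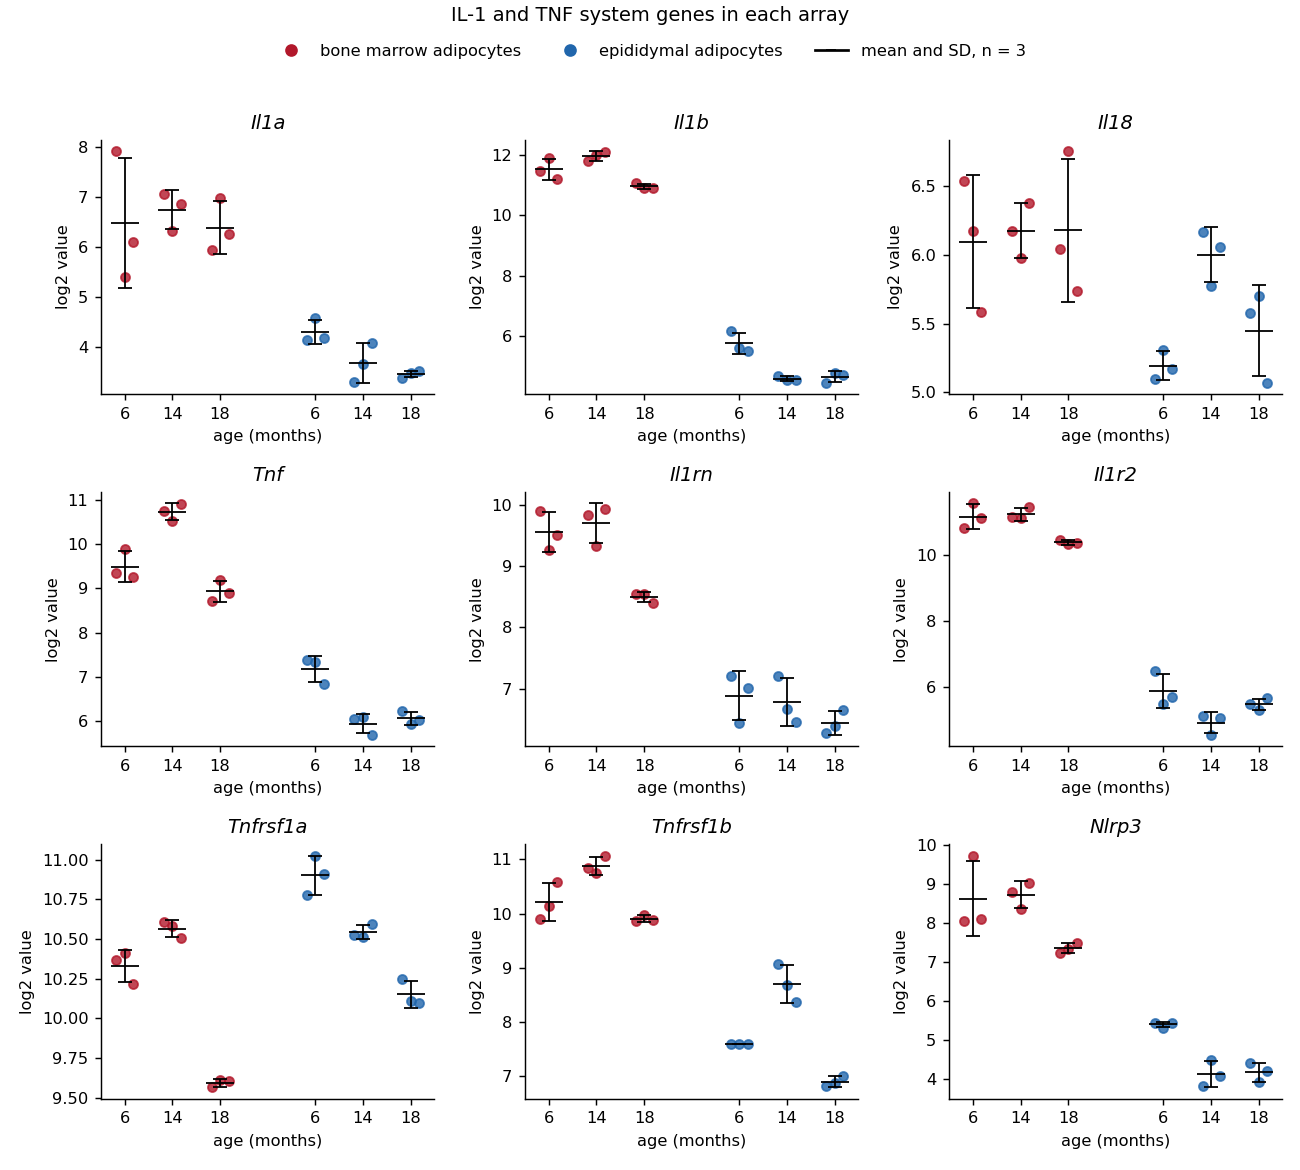
Log2 value (y axis) of the 9 measured genes in each of 18 arrays, by age in months, for bone marrow (red, left) and epididymal adipocytes (blue, right), with the mean and SD of 3 arrays. Il1b lies at 10.90 to 12.11 in all bone marrow arrays and at 4.45 to 6.15 in all epididymal arrays, and Tnfrsf1a is the gene whose epididymal arrays at 6 months lie above every bone marrow array.

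The upstream sequences of 4 genes are shown because Tnf and Il1b are the ligands whose age changes at 14 months differed most between the cell types, and the TNF receptor genes are set beside them. Each is the 250 bases before a RefSeq start site, 5′ to 3′ on the strand of the gene, in build GRCm38.p6, with TATAAA in capitals. Il1b is on the minus strand of chr2:129371140-129371389, Tnf on the minus strand of chr17:35202008-35202257, Tnfrsf1a on the plus strand of chr6:125349473-125349722 and Tnfrsf1b on the minus strand of chr4:145246871-145247120.
Il1b: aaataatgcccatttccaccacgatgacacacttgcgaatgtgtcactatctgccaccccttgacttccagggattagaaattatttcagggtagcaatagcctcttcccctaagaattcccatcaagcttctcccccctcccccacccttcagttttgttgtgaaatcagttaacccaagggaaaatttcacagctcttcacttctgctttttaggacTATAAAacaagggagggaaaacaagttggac
Tnf: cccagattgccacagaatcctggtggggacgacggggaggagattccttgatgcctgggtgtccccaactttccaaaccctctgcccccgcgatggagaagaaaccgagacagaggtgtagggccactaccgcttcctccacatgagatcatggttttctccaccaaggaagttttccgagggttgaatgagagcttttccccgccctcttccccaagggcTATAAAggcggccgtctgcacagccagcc
Tnfrsf1a: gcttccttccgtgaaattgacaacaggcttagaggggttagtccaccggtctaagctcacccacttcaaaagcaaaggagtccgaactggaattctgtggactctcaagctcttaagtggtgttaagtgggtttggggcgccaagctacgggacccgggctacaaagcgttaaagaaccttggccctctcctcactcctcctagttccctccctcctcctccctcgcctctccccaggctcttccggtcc
Tnfrsf1b: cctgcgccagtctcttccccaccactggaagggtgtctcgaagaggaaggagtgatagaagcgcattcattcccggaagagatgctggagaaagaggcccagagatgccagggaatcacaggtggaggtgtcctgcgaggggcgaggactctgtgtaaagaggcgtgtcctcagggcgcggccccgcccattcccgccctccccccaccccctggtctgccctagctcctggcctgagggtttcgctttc
TATAAA lay 31 to 26 bases before the start site of Il1b, 29 to 24 bases before that of Tnf and 32 to 27 bases before that of Il1a, lay 175 to 170 bases before that of Il18 on the opposite strand, and was not in the windows of the TNF receptor genes. It was searched on both strands with TGANTCA (AP-1), TTGCNNAA (C/EBP) and the 10-base kB motif, and none of these other motifs was in the 4 windows shown. Of 32851 windows of the same length, 12.4% held TATAAA, 6.75% the AP-1 motif, 9.56% the C/EBP motif and 7.25% the kB motif. The AP-1 motif was found before Il1a, 12 to 6 bases from the start site, and in 1 of 3 windows of Il1rn. The kB motif was in 1 of 2 windows of Nlrp3 and in 1 of 2 windows of Il1r1, and the C/EBP motif was in the other window of Il1r1. These are matches of letters only.

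Il1b, the secreted ligand that needs an inflammasome (probe set 10487597), had the largest difference between cell types of the 9 genes. In bone marrow its values were 11.48, 11.89 and 11.21 at 6 months, 11.80, 12.02 and 12.11 at 14 months, and 11.06, 10.90 and 10.92 at 18 months. In epididymal adipocytes they were 6.15, 5.61 and 5.51 at 6 months, 4.67, 4.54 and 4.55 at 14 months, and 4.45, 4.78 and 4.71 at 18 months. Every 18-month bone marrow array lay below every younger one, and in epididymal adipocytes the 6-month arrays lay above all older ones. The difference between bone marrow and epididymal adipocytes was 5.77 at 6 months (SE 0.171, adjusted p = 3.74e-15), 7.39 at 14 months (168-fold, SE 0.171, adjusted p = 2.01e-16) and 6.31 at 18 months (SE 0.171, adjusted p = 9.98e-16). Of the neighbors in the order of its 6 group means, only bone marrow at 14 and 6 months and epididymal adipocytes at 18 and 14 months had overlapping arrays.

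Il1a, the ligand that is active as a precursor and is released by damaged cells (probe set 10487588), varied most between the replicates of 6-month bone marrow. Its values were 7.93, 5.40 and 6.11 in bone marrow at 6 months, 7.07, 6.33 and 6.87 at 14 months, and 5.95, 6.98 and 6.26 at 18 months. The epididymal values were 4.15, 4.58 and 4.18 at 6 months, 3.30, 3.67 and 4.09 at 14 months, and 3.39, 3.48 and 3.53 at 18 months. The bone marrow groups overlapped with one another, and replicate 1 of 6 months had the highest value of the 18 arrays for this gene. The gene was higher in bone marrow by 2.73 over the ages (6.62-fold, SE 0.244, adjusted p = 7.02e-09), and no age change of Il1a was called in either cell type.

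Il18, which is cut by caspase-1 as IL-1β is (probe set 10585194), differed least between cell types among the ligands. Its values in bone marrow were 6.54, 6.17 and 5.58 at 6 months, 6.17, 5.98 and 6.38 at 14 months, and 6.04, 6.76 and 5.74 at 18 months. Epididymal adipocytes had 5.10, 5.31 and 5.17, then 6.17, 5.78 and 6.06, then 5.57, 5.70 and 5.07 at the same ages. The cell types overlapped at 14 months and not at 6 or 18 months. The difference of bone marrow from epididymal adipocytes was 0.60 over the ages (1.52-fold, SE 0.140, adjusted p = 9.48e-04), or -0.14 with the ribosomal scaling (adjusted p = 0.326), and 0.17 at 14 months (95% interval -0.34 to 0.68, adjusted p = 0.613).

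Tnf, the TNF ligand (probe set 10450501), was at its highest in bone marrow at 14 months, the age at which it was at its lowest mean in epididymal adipocytes. In bone marrow its values were 9.34, 9.89 and 9.25 at 6 months, 10.76, 10.52 and 10.90 at 14 months, and 8.71, 9.19 and 8.89 at 18 months. In epididymal adipocytes they were 7.38, 7.34 and 6.85 at 6 months, 6.05, 6.09 and 5.69 at 14 months, and 6.23, 5.93 and 6.02 at 18 months. No 2 bone marrow groups overlapped, and only the 14 and 18-month groups overlapped among epididymal adipocytes. The difference between the cell types was 2.30 at 6 months (4.94-fold, SE 0.185, adjusted p = 3.08e-09), 4.78 at 14 months (27.5-fold, SE 0.185, adjusted p = 1.22e-13) and 2.87 at 18 months (7.29-fold, SE 0.185, adjusted p = 1.21e-10).

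**Figure D2:**
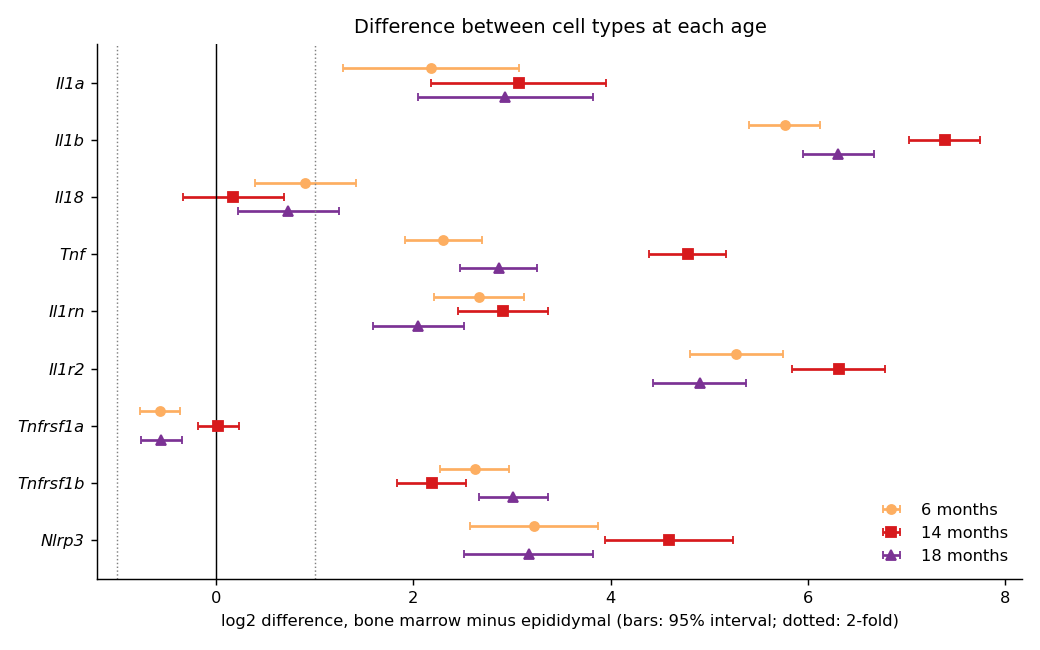
Log2 difference of bone marrow minus epididymal adipocytes (x axis, with the 95% interval) for each gene at 6, 14 and 18 months, where dotted lines mark a fold of 2 in either direction. The differences of Tnf (4.78) and Nlrp3 (4.59) are largest at 14 months, and Tnfrsf1a and Il18 lie near 0 at that age.

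The inhibitors of IL-1 were high in bone marrow together with the ligands. Il1rn, the secreted antagonist of the IL-1 receptor (probe set 10469816), had values of 9.90, 9.27 and 9.50 in bone marrow at 6 months, 9.84, 9.33 and 9.92 at 14 months, and 8.54, 8.55 and 8.40 at 18 months. The antagonist's epididymal values were 7.21, 6.44 and 7.01 at 6 months, 7.21, 6.68 and 6.46 at 14 months, and 6.28, 6.40 and 6.66 at 18 months. Bone marrow at 18 months lay below both younger groups, while the 3 epididymal groups overlapped with their neighbors. The gene was higher in bone marrow by 2.67 at 6 months (SE 0.219, adjusted p = 4.35e-09), 2.91 at 14 months (SE 0.219, adjusted p = 1.45e-09) and 2.05 at 18 months (SE 0.219, adjusted p = 1.63e-07).

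Il1r2, the decoy receptor, which neutrophils are known to carry (probe set 10345752), was second to Il1b in its difference. Its values in bone marrow were 10.81, 11.57 and 11.12 at 6 months, 11.14, 11.12 and 11.47 at 14 months, and 10.47, 10.33 and 10.38 at 18 months. Its values in epididymal adipocytes were 6.49, 5.50 and 5.70 at 6 months, 5.14, 4.56 and 5.08 at 14 months, and 5.48, 5.32 and 5.67 at 18 months. The highest epididymal value was in replicate 1 of 6 months, the array with the high neutrophil list. The difference over the ages was 5.50 (45.2-fold, SE 0.130, adjusted p = 1.54e-17), and 5.57 at 6 months without that array, against 5.27 with it. The neutrophil markers moved the same way between cell types, as did all 5 erythroid and all 4 megakaryocyte and platelet markers. So did 5 of 6 B lineage and 9 of 11 macrophage and monocyte markers. All 9 adipocyte, 5 of 6 fibroblast and stromal and 3 of 5 endothelial markers went the other way, and the part of any list in the result was not tested.

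Tnfrsf1a, the TNF receptor found on most cells (probe set 10541895), was the gene with bone marrow below epididymal adipocytes at 6 and 18 months. It had values of 10.37, 10.41 and 10.22 in bone marrow at 6 months, 10.61, 10.58 and 10.51 at 14 months, and 9.57, 9.61 and 9.61 at 18 months. Epididymal adipocytes had 10.78, 11.02 and 10.91 at 6 months, 10.53, 10.51 and 10.59 at 14 months, and 10.25, 10.11 and 10.10 at 18 months. Bone marrow lay below epididymal adipocytes at 6 and 18 months with no overlap, and the groups overlapped at 14 months. The difference of bone marrow from epididymal adipocytes was -0.57 at 6 months (SE 0.0982, adjusted p = 6.43e-05), 0.02 at 14 months (95% interval -0.18 to 0.23, adjusted p = 0.886) and -0.56 at 18 months (SE 0.0982, adjusted p = 8.32e-05). Where arrays were scaled to equal ribosomal protein genes, the difference over the ages was -1.11 and passed a fold of 2, against -0.37 as deposited.

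Tnfrsf1b, the receptor found mainly on blood and endothelial cells (probe set 10518300), was higher in bone marrow at every age. Its values in bone marrow were 9.90, 10.14 and 10.59 at 6 months, 10.84, 10.75 and 11.07 at 14 months, and 9.86, 9.98 and 9.88 at 18 months. In epididymal adipocytes they were 7.59, 7.58 and 7.59 at 6 months, 9.07, 8.67 and 8.36 at 14 months, and 6.81, 6.86 and 7.01 at 18 months. In epididymal adipocytes the 3 ages did not overlap, and 14 months was highest, as it was in bone marrow. The difference between the cell types was 2.62 at 6 months (6.15-fold, SE 0.168, adjusted p = 1.19e-10), 2.18 at 14 months (4.55-fold, SE 0.168, adjusted p = 1.86e-09) and 3.01 at 18 months (8.08-fold, SE 0.168, adjusted p = 1.43e-11).

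Nlrp3, the sensor of the inflammasome that activates caspase-1 (probe set 10376513), had the same order of its group means as Il1b, Il1r2 and Tnf. Its values in bone marrow were 8.05, 9.72 and 8.10 at 6 months, 8.79, 8.36 and 9.02 at 14 months, and 7.22, 7.33 and 7.48 at 18 months. In epididymal adipocytes they were 5.44, 5.31 and 5.44 at 6 months, 3.82, 4.49 and 4.08 at 14 months, and 4.40, 3.92 and 4.21 at 18 months. Replicate 2 of 6 months was the highest bone marrow array, and the 18-month bone marrow group lay below both younger ones. The difference between the cell types was 3.66 over the ages (12.6-fold, SE 0.179, adjusted p = 6.85e-13).

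In bone marrow, 2 of the 9 genes rose at 14 months against 6 months and none fell, where 8.66% of all probe sets were called (5.08% higher, 3.58% lower). Of all calls 58.6% were higher at 14 months, and 77.2% were with the ribosomal scaling. The arrays of 3 genes did not overlap, against 19.9% of all probe sets. Tnf rose by 1.24 (2.35-fold, SE 0.185, adjusted p = 4.0e-04) and Tnfrsf1b by 0.68 (1.60-fold, SE 0.168, adjusted p = 0.0160). The call for Tnfrsf1b was lost without replicate 1 of 6 months (0.52, adjusted p = 0.0671) or replicate 3 of 14 months (0.58, adjusted p = 0.0886), and in a fit of the compared groups alone (adjusted p = 0.154). Il1a passed without replicate 1 of 6 months (1.00, adjusted p = 0.0362), and Il1b (0.63, adjusted p = 0.0244) and Nlrp3 (0.65, adjusted p = 0.0441) passed without replicate 2, the array with high immediate early genes. Of the 6 B lineage markers 4 were called higher at 14 months (median 0.98), as were 3 of the 11 macrophage and monocyte markers, 2 of the 5 T and NK markers (median 0.57) and 2 of the 12 immediate early genes. Of the 6 fibroblast and stromal markers 3 were called lower, as were 2 of the 5 endothelial, 1 of the 4 megakaryocyte and platelet and 1 of the 9 adipocyte markers. The part of these lists in the result was not tested.

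At 18 months against 6 months, 5 of the 9 genes fell in bone marrow and none rose, where 8.5% of all probe sets were called (3.37% higher, 5.13% lower). Of all calls 39.7% were higher at 18 months, against 77.3% with the ribosomal scaling, 51.6% with quantile normalization repeated and 49.8% with arrays centred on their median. The arrays of 6 genes did not overlap, against 20.2% of all probe sets. Nlrp3 fell by 1.27 (2.42-fold, SE 0.310, adjusted p = 0.0168), Il1rn by 1.06 (2.08-fold, SE 0.219, adjusted p = 0.00695) and Il1r2 by 0.78 (1.71-fold, SE 0.225, adjusted p = 0.0388). Tnfrsf1a fell by 0.74 (1.66-fold, SE 0.0982, adjusted p = 3.97e-04) and Il1b by 0.57 (1.48-fold, SE 0.171, adjusted p = 0.0475), while Tnf had -0.56 (adjusted p = 0.0666). Without replicate 2 of 6 months Nlrp3 had -0.72 (adjusted p = 0.0344), Il1b -0.38 (adjusted p = 0.182) and Il1r2 -0.58 (adjusted p = 0.145). Of the 6 fits that each left out 1 array, Il1b lost its call in 5 (all but that without replicate 3 of 6 months), Il1r2 in 4 (replicate 2 of 6 months and each 18-month replicate) and Nlrp3 in 2 (replicates 1 and 2 of 18 months), and Il1rn and Tnfrsf1a in 0. In a fit of the compared groups alone none of the 9 genes was called, and 18 of all probe sets were. Of the marker lists, 3 of the 12 immediate early genes (median -0.60), 3 of the 5 endothelial, 3 of the 9 adipocyte, 1 of the 12 neutrophil and 1 of the 6 fibroblast and stromal markers were called lower, 1 of the 5 T and NK markers was called higher, and their part in the result was not tested.

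Between 14 and 18 months, 7 of the 9 genes fell in bone marrow, all but Il1a and Il18, where 13% of all probe sets were called (4.75% higher, 8.23% lower). Of all calls 36.6% were higher at 18 months, against 53.4% with the ribosomal scaling and 47.5% with quantile normalization repeated. Tnf fell by 1.80 (3.48-fold, SE 0.185, adjusted p = 1.04e-05), Nlrp3 by 1.37 (2.59-fold, SE 0.310, adjusted p = 0.00576) and Il1rn by 1.20 (2.30-fold, SE 0.219, adjusted p = 0.00118). Il1b fell by 1.02 (SE 0.171, adjusted p = 6.16e-04), Tnfrsf1b by 0.98 (SE 0.168, adjusted p = 6.97e-04), Tnfrsf1a by 0.97 (SE 0.0982, adjusted p = 9.28e-06) and Il1r2 by 0.85 (SE 0.225, adjusted p = 0.0159). The call for Il1r2 was lost without replicate 3 of 14 months (adjusted p = 0.0853) or replicate 2 of 18 months (adjusted p = 0.0579). All 7 genes had no overlap between these ages, against 31.7% of all probe sets. In the same comparison all 6 B lineage markers (median -1.04), 8 of the 12 immediate early genes (median -1.02), 4 of the 9 adipocyte, 2 of the 11 macrophage and monocyte, 1 of the 12 neutrophil, 1 of the 5 T and NK and 1 of the 5 endothelial markers were called lower. Of the 5 erythroid markers 3 were called higher, as was 1 adipocyte marker, and the part of these lists in the result was not tested.

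In epididymal adipocytes at 14 months against 6 months, 5 of the 9 genes fell and 2 rose, where 17.7% of all probe sets were called (10.2% higher, 7.51% lower). The arrays of 8 genes did not overlap, against 35.9% of all probe sets. Of all calls in this comparison 57.6% were higher at 14 months, against 15.8% with the ribosomal scaling and 42.6% with arrays centred on their median. The ligands Tnf (-1.24, SE 0.185, adjusted p = 7.88e-05) and Il1b (-1.17, SE 0.171, adjusted p = 6.53e-05) fell 2.37-fold and 2.26-fold. Nlrp3 fell by 1.27 (SE 0.310, adjusted p = 0.00686), Il1r2 by 0.97 (SE 0.225, adjusted p = 0.00480) and Tnfrsf1a by 0.36 (SE 0.0982, adjusted p = 0.0147). The 14-month means of Il1b (4.59), Nlrp3 (4.13) and Il1r2 (4.93) lay below the median of all values (5.545), so their falls end at dim values. Tnfrsf1b rose by 1.11 (2.16-fold, SE 0.168, adjusted p = 8.90e-05) and Il18 by 0.81 (1.75-fold, SE 0.243, adjusted p = 0.0257). The calls of Il18 and Tnfrsf1a were lost in some alternatives, for Il18 without replicates 1 or 3 of either age (0.73 to 0.80, adjusted p between 0.0681 and 0.105) or with the ribosomal scaling (0.54, adjusted p = 0.0862), and for Tnfrsf1a without replicate 2 of 6 months (-0.30, adjusted p = 0.0806) or replicates 1 or 2 of 14 months (adjusted p = 0.0503 and 0.0544). Without replicate 1 of 6 months Il1r2 had -0.67 (adjusted p = 0.0307), and Il1b had -0.98 (adjusted p = 4.29e-04).

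**Figure D3:**
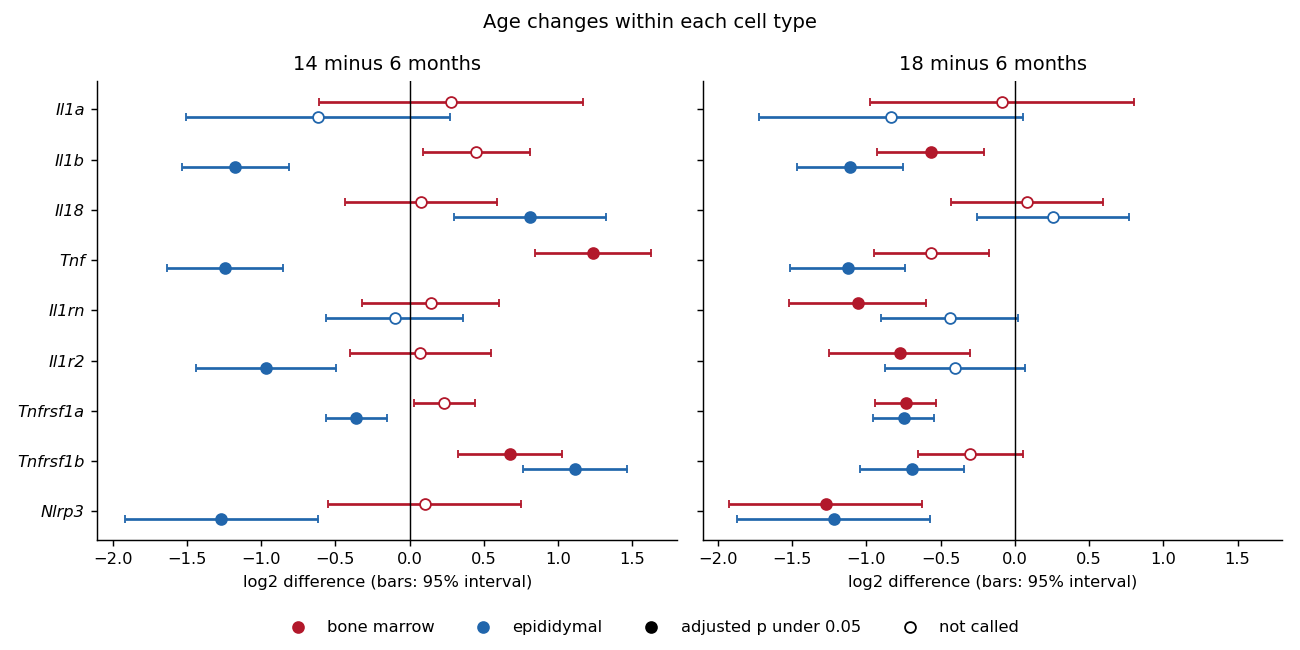
Log2 difference from 6 months (x axis, with the 95% interval) at 14 months (left) and 18 months (right) for each gene in bone marrow (red) and epididymal adipocytes (blue), with filled points for an adjusted p under 0.05. At 14 months Tnf is at 1.24 in bone marrow and at -1.24 in epididymal adipocytes, while at 18 months the called genes of both cell types all lie below 0.

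Several marker lists of the epididymal preparations moved at 14 months, some up and some down. Of 11 macrophage and monocyte markers 10 were called higher and 1 lower at 14 months against 6 months, with a median of 2.20, and the list mean was 9.13 to 9.70 at 14 months, against 7.31 to 7.70 at 6 months. All 12 immediate early genes were called lower, with a median of -2.87, and their mean was 7.53 to 8.22 at 14 months, against 10.82 to 10.89 at 6 months. All 6 fibroblast and stromal markers (median 1.27), 4 of the 6 B lineage and 3 of the 5 endothelial markers were also called higher, as were 1 T and NK and 1 megakaryocyte and platelet marker. Of the 12 neutrophil markers 3 were called lower (median -1.34), as were 1 adipocyte and 1 erythroid marker. With lists moving both ways, every called gene went in the direction of some list, so a shared direction tells nothing about any of them. The part of any list in these results was not tested.

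At 18 months against 6 months, which shares its 6-month arrays with the comparison at 14 months, 5 of the 9 genes fell in epididymal adipocytes and none rose, where 16.2% of all probe sets were called (8.22% higher, 8.01% lower). Of all calls 50.6% were higher at 18 months, against 80.8% with arrays centred on their median, 63.1% with quantile normalization repeated and 40.1% with the ribosomal scaling. The arrays of 6 genes did not overlap, against 41.7% of all probe sets. Nlrp3 fell by 1.22 (2.33-fold, SE 0.310, adjusted p = 0.0113), Tnf by 1.13 (2.18-fold, SE 0.185, adjusted p = 3.95e-04) and Il1b by 1.11 (2.16-fold, SE 0.171, adjusted p = 2.08e-04). Tnfrsf1a fell by 0.75 (SE 0.0982, adjusted p = 3.68e-05) and Tnfrsf1b by 0.69 (SE 0.168, adjusted p = 0.00819). The 18-month means of Nlrp3 (4.18) and Il1b (4.65) lay below the median of all values (5.545). The call for Nlrp3 was lost without replicate 2 of 18 months (-1.09, adjusted p = 0.0582), and Il1a passed in a fit of the compared groups alone (-0.84, adjusted p = 0.00145). In this comparison 9 of the 12 immediate early genes, 7 of the 11 macrophage and monocyte, 4 of the 5 endothelial, 2 of the 5 erythroid, 1 of the 4 megakaryocyte and platelet and 1 of the 6 fibroblast and stromal markers were called lower, none of these lists had a call in the other direction, and their part in the result was not tested.

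At 18 months against 14 months 2 of the 9 genes fell in epididymal adipocytes, where 24.1% of all probe sets were called (11.7% higher, 12.5% lower) and the arrays of 4 genes did not overlap, against 46.2% of all probe sets. Of all calls 48.3% were higher at 18 months, against 81.2% with arrays centred on their median, 74.1% with the ribosomal scaling and 63.7% with quantile normalization repeated. Tnfrsf1b fell by 1.81 (3.50-fold, SE 0.168, adjusted p = 1.85e-07), and all 11 macrophage and monocyte markers were called lower with it, by a median of 3.60, to a list mean of 6.19 to 6.28 at 18 months, against 9.13 to 9.70 at 14 months. Tnfrsf1a fell by 0.39 (SE 0.0982, adjusted p = 0.00602), and this call was lost with arrays centred on their median (-0.13, adjusted p = 0.302) or with the ribosomal scaling (-0.17, adjusted p = 0.393). Il1r2 had 0.56 (adjusted p = 0.0810), and it was called higher at 18 months under both of those scalings. Tnf (0.12, 95% interval -0.27 to 0.51), Il1b (0.06, interval -0.30 to 0.42) and Nlrp3 (0.05, interval -0.60 to 0.70) had intervals that included 0. In the same comparison 8 of the 12 immediate early genes were called higher (median 1.05), as were 5 of the 12 neutrophil markers (median 1.43), and 1 other neutrophil marker was called lower. All 5 endothelial, 5 of the 6 fibroblast and stromal, 3 of the 6 B lineage and 3 of the 5 T and NK markers were called lower. The part of these lists in the results was not tested.

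**Figure D4:**
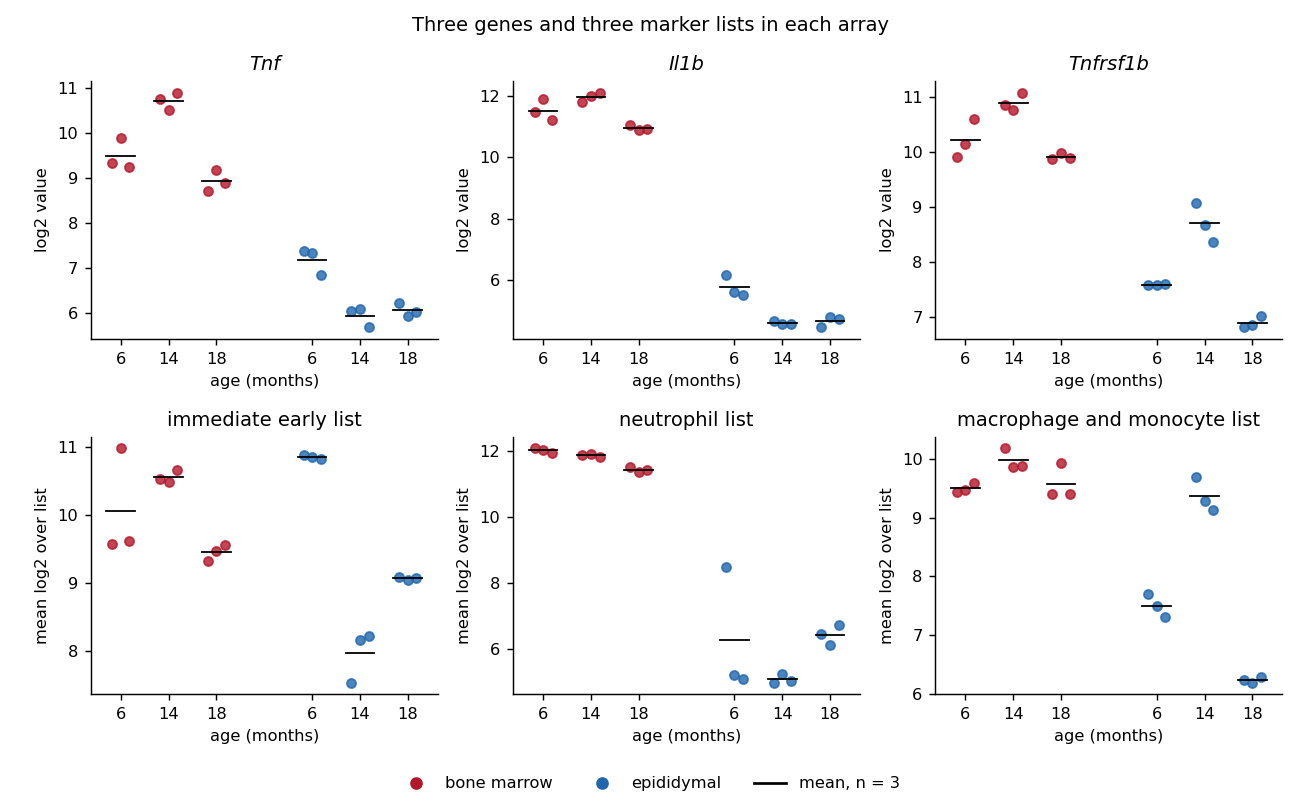
Log2 values of Tnf, Il1b and Tnfrsf1b (top) and mean log2 values over 12 immediate early, 12 neutrophil and 11 macrophage and monocyte genes (bottom) in each array, by age in months, for bone marrow (red, left) and epididymal adipocytes (blue, right), with lines at the mean of 3 arrays. In epididymal adipocytes Tnfrsf1b and the macrophage list are highest at 14 months, and replicate 1 of 6 months is at 8.48 on the neutrophil list. The endothelial, fibroblast and stromal, B lineage, T and NK, and megakaryocyte and platelet lists, not drawn, are also highest at 14 months in epididymal adipocytes.

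The age change at 14 months differed between the cell types for 4 of the 9 genes, all with the larger value in bone marrow, where 11.6% of all probe sets were called (5.07% with the larger value in bone marrow, 6.53% in epididymal adipocytes). Of all calls 43.7% had the larger value in bone marrow, against 82.6% with the ribosomal scaling and 56.5% with arrays centred on their median. The change in bone marrow minus that in epididymal adipocytes was 2.48 for Tnf (SE 0.262, adjusted p = 3.41e-06), 1.62 for Il1b (SE 0.242, adjusted p = 1.48e-04), 1.04 for Il1r2 (SE 0.318, adjusted p = 0.0406) and 0.59 for Tnfrsf1a (SE 0.139, adjusted p = 0.00772). Nlrp3 was just outside the limit (1.37, SE 0.439, adjusted p = 0.0504). Il1r2 was not called in 7 of the 12 fits that each left out 1 array (all but those without replicate 2 of 6-month bone marrow, replicates 2 or 3 of 6-month and replicates 1 or 3 of 14-month epididymal adipocytes), and it had 0.74 (adjusted p = 0.0933) without replicate 1 of 6-month epididymal adipocytes. Nlrp3 passed without replicate 2 of 6-month bone marrow (1.92, adjusted p = 8.41e-05), of 14-month bone marrow (1.55, adjusted p = 0.0411) or of 14-month epididymal adipocytes (1.55, adjusted p = 0.0425). It also passed with the ribosomal scaling (1.70, adjusted p = 0.00572), with median centring (1.46, adjusted p = 0.0407), and where dim probe sets (adjusted p = 0.0401) or all but 1 probe set per gene (adjusted p = 0.0450) were left out. Il1a passed without replicate 1 of 6-month bone marrow (1.61, adjusted p = 0.00737), and Il18 in the other direction without replicate 3 (-0.99, adjusted p = 0.0477). All 12 immediate early genes were called in this test with the larger value in bone marrow. Of the 11 macrophage and monocyte markers 9 had the larger value in epididymal adipocytes and 1 in bone marrow. All 6 fibroblast and stromal markers (median -2.32) and all 5 endothelial markers (median -2.02) had the larger value in epididymal adipocytes. So did 1 of the 4 megakaryocyte and platelet markers, while 1 of the 9 adipocyte and 1 of the 6 B lineage markers had it in bone marrow. The part of these lists in the result was not tested.

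At 18 months limma called none of the 9 genes for a difference between the age changes of the cell types, where 8.51% of all probe sets were called (3.49% with the larger value in bone marrow, 5.02% in epididymal adipocytes). Of all calls 41% had the larger value in bone marrow, against 75.4% with the ribosomal scaling and 20.9% with median centring. Of the 9 genes 2 had an unadjusted p under 0.05, Il1b (0.54, adjusted p = 0.193) and Tnf (0.56, adjusted p = 0.215). The intervals of the difference were -0.97 to 0.87 for Nlrp3 and -0.28 to 0.31 for Tnfrsf1a. Without replicate 1 of 6-month bone marrow Il1a was called (1.48, adjusted p = 0.0200).

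The other genes of the pathway were taken from 5 lists of ligands and decoys, receptors, inflammasome and processing genes, and adaptors of the IL-1 and TNF receptors, of which 64 of 72 genes were measured. Over the ages 18 of the 64 were higher in bone marrow than in epididymal adipocytes and 5 lower, where 21.8% of all probe sets were called, with a median difference of 0.50, against -0.02 over all probe sets. Of the 16 inflammasome and processing genes 7 were higher and 2 lower, with a median of 0.73. Examples were Naip5, a sensor of bacterial flagellin (2.90, SE 0.107, adjusted p = 9.39e-15), Aim2, a sensor of DNA (2.53, SE 0.115, adjusted p = 2.15e-13), and Mefv, which encodes pyrin (2.44, SE 0.120, adjusted p = 7.48e-13). Il18rap, a subunit of the IL-18 receptor, had the largest difference of the named genes (3.76, SE 0.126, adjusted p = 2.27e-15), and 3 of 10 receptors in all were higher and 1 lower.

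In bone marrow at 14 months against 6 months 11 of the 64 genes rose and none fell, where 8.66% of all probe sets were called, with a median of 0.12, against -0.02 over all probe sets. The list of TNF receptor adaptors gave 6 of these, among them Traf1 (1.14, adjusted p = 1.94e-04) and Tnfaip3, which encodes the NF-κB inhibitor A20 (0.96, adjusted p = 0.00127). P2rx7, a channel opened by ATP (0.85, adjusted p = 1.64e-04), and Txnip, which can bind NLRP3 (1.01, adjusted p = 2.33e-04), were among 3 inflammasome and processing genes. By 18 months, against 6 months, 5 of the 64 fell and 1 rose, with a median of -0.08, against -0.05 over all probe sets. Of all probe sets 8.5% were called in this comparison (3.37% higher, 5.13% lower). When the model held just the bone marrow arrays of those ages, 18 of the 23410 probe sets passed. The pathway calls given here come from the fit to all 18 arrays. The inhibitory kinase Irak3 fell by 1.09 (adjusted p = 4.47e-04), Irak2 by 0.74 (adjusted p = 0.0270) and Tnfaip3 by 0.67 (adjusted p = 0.0179), while Birc2, a ubiquitin ligase of the TNF receptor complex, rose by 0.66 (adjusted p = 0.0153). Between 14 and 18 months 17 of the 64 fell and none rose, where 13% of all probe sets were called.

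In epididymal adipocytes at 14 months against 6 months 16 of the 64 genes rose and 10 fell, where 17.7% of all probe sets were called, with a median of 0.19, against -0.04 over all probe sets. Of the 17 genes on the list of TNF receptor adaptors 5 fell and 3 rose. The falls included Tnfaip3 (-3.04, adjusted p = 4.98e-10) and Zfp36 (-2.79, adjusted p = 1.52e-08). Zfp36 is on that list but is not a receptor adaptor, and encodes a protein that destabilizes Tnf mRNA. Of the 10 receptors 6 rose and none fell. The ligands Tnfsf10, which encodes TRAIL (1.88, adjusted p = 2.26e-08), and Il33 (1.77, adjusted p = 7.80e-08) rose. At 18 months against 6 months 10 of the 64 fell and 3 rose, where 16.2% of all probe sets were called, with a median of -0.15, against -0.06 over all probe sets. Tnfaip3 fell by 1.61 (adjusted p = 2.49e-06), the ubiquitin ligase Birc3 by 1.48 (adjusted p = 8.15e-07) and Zfp36 by 1.32 (adjusted p = 2.14e-04), while Casp1, the protease that cuts the precursors of IL-1β and IL-18, rose by 1.45 (adjusted p = 0.00162). Between 14 and 18 months 26 of the 64 fell and 7 rose, where 24.1% of all probe sets were called.

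**Figure D5:**
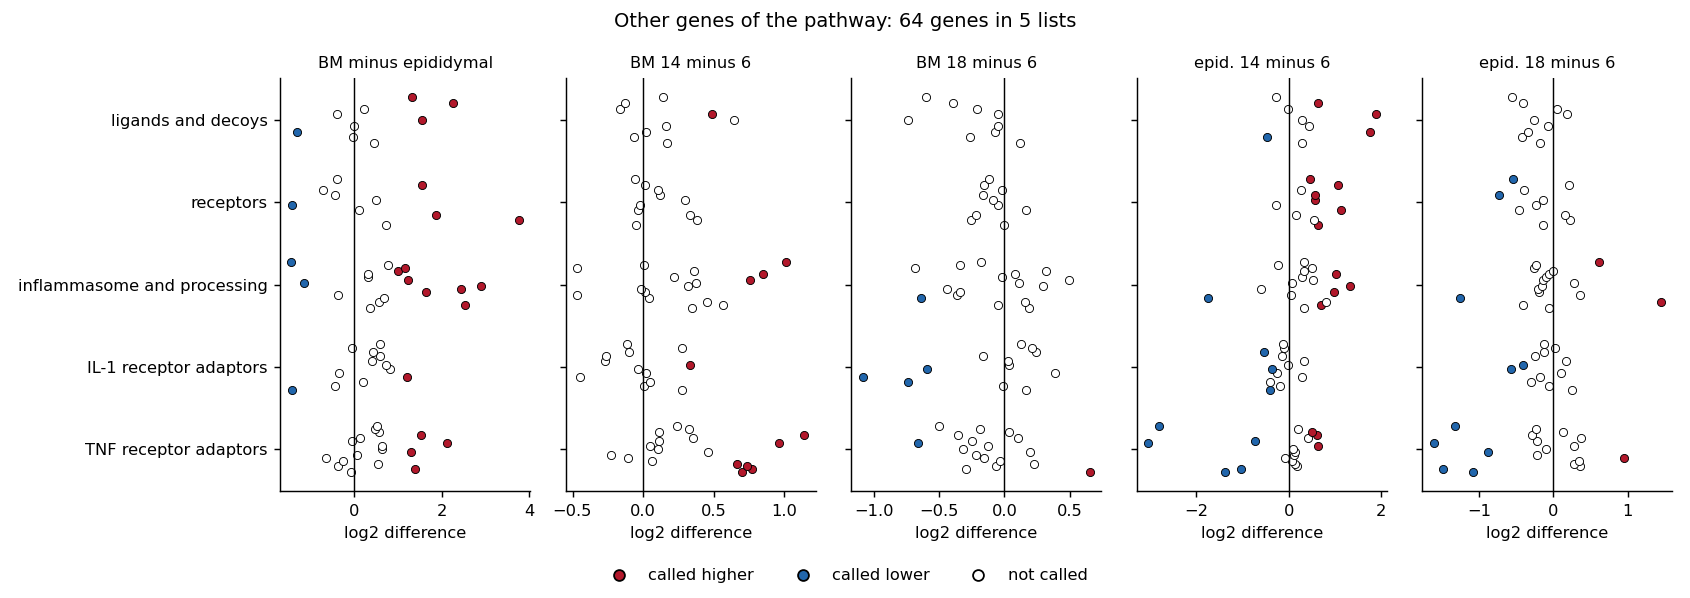
Log2 difference (x axis) of each of 64 other pathway genes, in 5 lists, for bone marrow (BM) minus epididymal adipocytes and for 14 and 18 months minus 6 months in each cell type, where red points were called higher, blue points lower and white points were not called. In bone marrow at 14 months 11 genes are called higher and 0 lower, and in epididymal adipocytes the points furthest left at 14 months are Tnfaip3 (-3.04) and Zfp36 (-2.79).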

How the data were processed

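Affymetrix mouse gene arrays were run on 18 pooled RNA preparations, with 3 arrays in each of 6 groups of bone marrow or epididymal adipocytes. For the deposited log2 values, the authors used Partek with gcRMA background correction and quantile normalization, and no further scaling was applied here. Background correction of this kind can compress differences of dim probe sets, and quantile normalization sets aside shifts shared by most genes.

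A linear model with 1 mean per group was fitted to all 18 arrays with limma 3.58.1 (R 4.3.3) and moderated contrasts. The Benjamini-Hochberg adjustment ran over the 23410 probe sets that name a gene, with calls at an adjusted p under 0.05 and, between cell types, also a fold of 2. Differences are bone marrow minus epididymal, or older minus younger. The replicates are pools, so p values measure only the spread between pools. With 3 arrays in a group the precision is limited. Collection dates were not analysed here, and age cannot be told apart from them. That the cell types share their mice is not used in the model. The genes, the marker and pathway lists and the tests were chosen with earlier results of these data known.

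Of the pathway genes, the text names up to 4 called genes for each of 5 comparisons, those with the largest absolute change among genes whose groups do not overlap. For Il1a, Il1b, Il1rn and Tnf it names the 3 other genes with the highest correlation. Neighbors in the order of group means were set apart where their arrays did not overlap. Promoter windows were taken from RefSeq, where all 10 genes matched with 14 windows, and for a gene with several windows the text says in how many a motif was found. The fit was tested on simulated data with known changes. Alternatives changed the scaling, the variance prior, array weights, the groups fitted, the probe sets tested, a replicate block and single arrays left out. Figures were drawn with matplotlib.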

Additional observations from a re-analysis of the deposited data

Results flagged for a closer look

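The age change at 14 months against 6 months differed between the cell types for 4 of the 9 genes, by a test of the difference itself. The change in bone marrow minus that in epididymal adipocytes was 2.48 for Tnf, which was higher at 14 months in bone marrow (10.73, against 9.49 at 6 months) and lower in epididymal adipocytes (5.94, against 7.19). It was 1.62 for Il1b, 1.04 for Il1r2 and 0.59 for Tnfrsf1a. The call for Il1r2 was lost by an ordinary analysis of variance (adjusted p = 0.0993) and with array weights (adjusted p = 0.0984). It was also lost in a fit of the compared groups alone (adjusted p = 0.104) and in 7 of the 12 fits that each left out 1 array. For Il1b, Il1r2 and Tnfrsf1a the change called within a cell type was the fall in epididymal adipocytes. The change in bone marrow was 0.45 for Il1b (adjusted p = 0.119), 0.07 for Il1r2 (adjusted p = 0.909) and 0.23 for Tnfrsf1a (adjusted p = 0.163). All 12 immediate early genes also differed in this test, with the larger value in bone marrow. So did 10 of the 11 macrophage and monocyte markers, 9 of them with the larger value in epididymal adipocytes. All 6 fibroblast and stromal and all 5 endothelial markers differed too, with the larger value in epididymal adipocytes. The part of these lists was not tested.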

How the results depend on the processing

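No called value changed sign under any alternative. Leaving out single arrays kept 7 of 9 genes called between cell types, or 8 at 6 months without replicate 3 of 6-month bone marrow. In bone marrow at 14 against 6 months 2 genes were called, and 1 with array weights or when only the compared groups were fitted, or 1 to 4 with single arrays left out. At 18 against 6 months 5 were called in bone marrow. The count there was 3 with quantile normalization repeated, with arrays centred on their median and with ribosomal protein genes set equal, 2 by an ordinary analysis of variance and 0 when only the compared groups were fitted, or 2 to 6 with single arrays left out. In epididymal adipocytes at 18 against 14 months 2 were called, and 4 when only the compared groups were fitted. The difference of age changes at 18 months had 0 calls, and 0 to 1 with single arrays left out. The cause was not tested.

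Over all probe sets, fitting only the compared groups gave 271 calls at 14 and 18 at 18 months against 6 months in bone marrow, where the common fit gave 2028 and 1991. Other large shifts were 5093 calls between cell types over the ages against 7841 with ribosomal protein genes set equal, 5418 at 6 months against 11998 with that scaling, 4150 in epididymal adipocytes at 14 against 6 months against 7586 with it, 3799 at 18 against 6 months against 7458 with array weights, and 5647 at 18 against 14 months against 9516 after median centring. Array weights gave 1105 and 961 calls at 14 and 18 against 6 months in bone marrow, and 8860 at 18 against 14 months in epididymal adipocytes. At 18 against 6 months in epididymal adipocytes ribosomal scaling gave 2496 and the fit of the compared groups alone 5834. With no limit on the fold, 13600 were called between cell types over the ages and 10843, 10726 and 11032 at 6, 14 and 18 months, against 5418, 5008 and 5576 with it. Scaling to 52 ribosomal protein genes moved the median of all probe sets between cell types by -0.75 over the ages and by -0.92, -0.59 and -0.73 at 6, 14 and 18 months. It moved the epididymal changes at 14 against 6 and 18 against 14 months by -0.28 and 0.22, and the differences of age changes by 0.33 and 0.20 at 14 and 18 months. Median centring moved medians by -0.18 (cell types at 18 months) to 0.26 (epididymal 18 against 14 months). No other probe set of a gene could be tried, since each had 1.

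Replicate numbers showed no visible pairing of the samples, which does not settle whether equal numbers share mice. Of 9 pairs of bone marrow and epididymal arrays with the same age and number, 1 had a correlation of deviations over 0.1 (range -0.14 to 0.15). With the number as a replicate block, the calls for Il1b at 18 against 6 months in bone marrow (-0.57, adjusted p = 0.0573) and for Il1r2 in the difference of age changes at 14 months (1.04, adjusted p = 0.0828) were lost, and no count moved by over 1.5 times.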

Other observations

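The genes most like Il1a, Il1b, Il1rn and Tnf were found by Pearson's r over the 18 arrays, after the mean of each cell type was taken off, so that what remains is age, replicate and whatever the arrays of a group share. For Il1b these were Clec4e (r = 0.95), Setd7 (r = 0.94) and Atf3 (r = 0.93). For Tnf they were Map3k8 (r = 0.95), Mideas (r = 0.93) and Sec16a (r = 0.92). For Il1a they were D830013O20Rik (r = 0.88), Aff4 (r = 0.85) and Ocstamp (r = 0.85), and for Il1rn they were Anxa2 (r = 0.86), Jdp2 (r = 0.86) and Tgif1 (r = 0.85). Within each cell type the likeness of Il1rn to Anxa2 was 0.95 in bone marrow and 0.49 in epididymal adipocytes, and that of Il1b to Clec4e was 0.89 and 0.99 in these cell types. Atf3 is 1 of the 12 immediate early genes.

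Among the 9 genes themselves, over the 9 arrays of a cell type, Il1b and Tnf varied together in bone marrow (r = 0.91) and in epididymal adipocytes (r = 0.93). Tnf and Tnfrsf1b had r = 0.88 in bone marrow and r = -0.18 in epididymal adipocytes, and Il1b and Il18 had r = 0.10 and r = -0.66 in the same cell types. The arrays of an age share their group, so these values describe 3 groups of 3 arrays and are not tested.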
